A study of Mus musculus with 10 samples.

Results

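The genes described here encode the collagens, laminins and integrins of cultured neural stem and progenitor cells (NSC/NPCs) from the subependymal zone (SEZ), the germinal niche that lines the lateral ventricles of the adult mouse brain. Earlier results of these data were known when the families were chosen. Within them, genes were taken by symbol alone: every Col gene with a chain number, every Lama, Lamb and Lamc gene, and every Itga and Itgb gene. This gave 81 of the 48795 genes of the count table, made up of 44 collagens, 11 laminins, 18 integrin α chains and 8 integrin β chains. RNA-seq had been carried out on 10 libraries in 4 groups. WT PRO (3 libraries) and p27KO PRO (2 libraries) were neurospheres kept proliferating for 3 days in vitro (DIV) with EGF (20 ng/ml) and FGF (10 ng/ml), which grow as floating balls of cells. WT DIFF (3 libraries) and p27KO DIFF (2 libraries) were cells plated on Matrigel, held for 2 DIV with FGF, then left without mitogens in 2% fetal bovine serum for 24 h (2 + 1 DIV). All cultures came from mice of 10 weeks, and p27KO marks a germline mutation of Cdkn1b, the gene of the cell cycle inhibitor p27, in mice kept on a C57BL/6J background. The study's design counts the libraries of a group as biological replicates.

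A collagen molecule is a triple helix of 3 α chains, and collagens are sorted by what they build: fibrils, sheet-like networks, molecules on the surface of fibrils (FACITs), or proteins with a membrane anchor. Laminins are cross-shaped trimers of an α, a β and a γ chain that, with collagen IV, form the basement membrane. Integrins are αβ pairs in the plasma membrane that hold cells to these ligands, the α chain largely deciding which ligand is bound. In the SEZ, laminin-rich basement membrane runs from blood vessels to the ventricular wall, and laminin-binding integrins are a known feature of the stem cells that touch it. Matrigel is itself a basement membrane extract rich in laminin and collagen IV, and polyA RNA reports the cells' own transcripts, not that protein. From PRO to DIFF the cells passed from floating spheres to an attached layer on Matrigel, lost mitogens and received serum, so attachment, mitogen withdrawal and serum cannot be told apart in any stage difference below. In such bulk libraries, fewer cells of a type and less RNA per cell cannot be told apart either.

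Library totals ranged from 19190068 to 25291674 estimated counts, and levels are given as normalised CPM, counts per 1000000 of the library total after scaling by the TMM method. The libraries labelled p27KO went against their label in that Cdkn1b was not lost, with a mean of 107 normalised CPM at PRO against 110 in WT and 135 against 198 at DIFF. Their titles and genotype labels give p27KO, and groups were taken from the titles, while their deposited descriptions name WT cells, a doubt that bears on every genotype value below. What part of the transcript the mutation removes is not given in the sources used here. Xist, the X-inactivation transcript, was at 2347 to 3517 CPM in the p27KO libraries and at 1.19 to 2.52 in the WT libraries, so genotype and sex of the cultures cannot be told apart. NSC/NPC markers were present in every library, the 12 markers summing to between 7959 and 10887 CPM. Single markers moved with the stage in both directions. By the test defined below, 5 were higher and 4 lower at DIFF in WT, beside 30.8% and 31.2% of all genes tested. Nes went from a mean of 1786 to 187 CPM and Olig2 from 785 to 255 in WT, while Slc1a3 went from 792 to 2292 and Msi1 from 55.5 to 286. Endothelial cells, pericytes and fibroblasts, and microglia are other sources of these genes in brain, and only some of their markers were at or near 0. Cdh5, Cldn5, Fap, Tyrobp, C1qa and C1qb had 0 counts in all 10 libraries, and Dcn and Ptprc had 3 counts each in all. Of the endothelial list, Flt1 went from a mean of 25.3 CPM at PRO to 1.86 at DIFF in WT. Kdr went from 1.97 to 7.33 CPM in WT and from 1.49 to 7.44 in p27KO. Slco1a4 went from 0.0794 to 3.21 in WT and from 0 to 4.87 in p27KO. Of the 14 pericyte and fibroblast markers 6 were testable, and their summed level moved with the stage, from 79.8 to 117 CPM at WT PRO to 296 to 474 at WT DIFF. Most of that sum was Notch3 and Pdpn, while the pericyte gene Pdgfrb was at a mean of 0.182 CPM at WT PRO and 2.86 at WT DIFF. In p27KO Pdgfrb was at 0.155 CPM at PRO and 6.76 at DIFF. The summed level of the endothelial list (5 of 12 testable) went from 14.8 to 53.2 CPM to 7.48 to 17.8 in WT, that of the microglia and leukocyte list (2 of 12) from 19.1 to 24.5 to 31.8 to 41.9, and that of the ependymal list (5 of 7) from 30.2 to 35.1 to 93.9 to 110. The part of these cells in the results was not tested.

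Changes are given as the log2 fold change with its SE from edgeR's quasi-likelihood test. A gene was tested with at least 10 counts in at least 2 libraries, and a gene was called at a Benjamini-Hochberg adjusted p under 0.05 over all 16797 genes tested. Of the 81 genes, 63 were tested: 36 collagens, 10 laminins, 13 integrin α and 4 integrin β chains. The 18 others reached at most 13 counts in a library. They include Col1a2 and Col3a1, the partners of Col1a1 in the fibrils of connective tissue, the leukocyte integrin chains Itgal, Itgam, Itgad and Itgb2, the hemidesmosome chain Itgb4, the collagen receptor chain Itga11, Itgb7, the laminin γ chain Lamc3, and Col6a5, Col6a6, Col10a1, Col13a1, Col17a1 and Col24a1. Itgax and Itgb6 had 0 counts in all libraries, which allows up to 3 counts in each.

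In WT cells 25 of the 63 tested genes were higher at DIFF and 11 were lower. Over all genes tested 30.8% were higher and 31.2% lower, beside 39.7% and 17.5% of the tested matrix and integrin genes. The median log2 fold change was 0.24 over these genes and 0.03 over all genes tested. In p27KO cells 20 were higher and 11 lower, where 24.3% of all genes were higher and 27.3% lower. All 31 genes called in p27KO were called in WT in the same direction. Of the 63 genes, 6 had 10 counts only in DIFF libraries (Col14a1, Col15a1, Col2a1, Col8a1 and Col8a2 among them) and 2 only in PRO libraries (Col19a1 and Col25a1), so that they passed the filter through the stage where they are high. Among the 55 genes with 10 counts at each stage, 19 were higher and 10 lower in WT, beside 28.8% and 32.9% of all 15370 such genes, and 15 were higher and 10 lower in p27KO, beside 23.1% and 28.8%. In sum, collagens held 448 to 610 CPM at WT PRO and 538 to 711 at WT DIFF, and laminins 525 to 703 and 438 to 581. Integrin α chains held 969 to 1209 CPM at WT PRO and 907 to 977 at WT DIFF, and integrin β chains 1311 to 1385 and 1208 to 1298. In WT the stages overlapped in the first 3 of these sums and not in the β chains. In p27KO (2 libraries per group) the β chains overlapped, at 1221 to 1439 CPM at PRO and 1221 to 1275 at DIFF. The other 3 sums did not. In both genotypes the mean collagen sum was higher at DIFF and the other 3 mean sums were lower. Groups of 2 separate more easily than groups of 3, so no difference between genotypes is read from the overlaps.

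**Figure D1:**
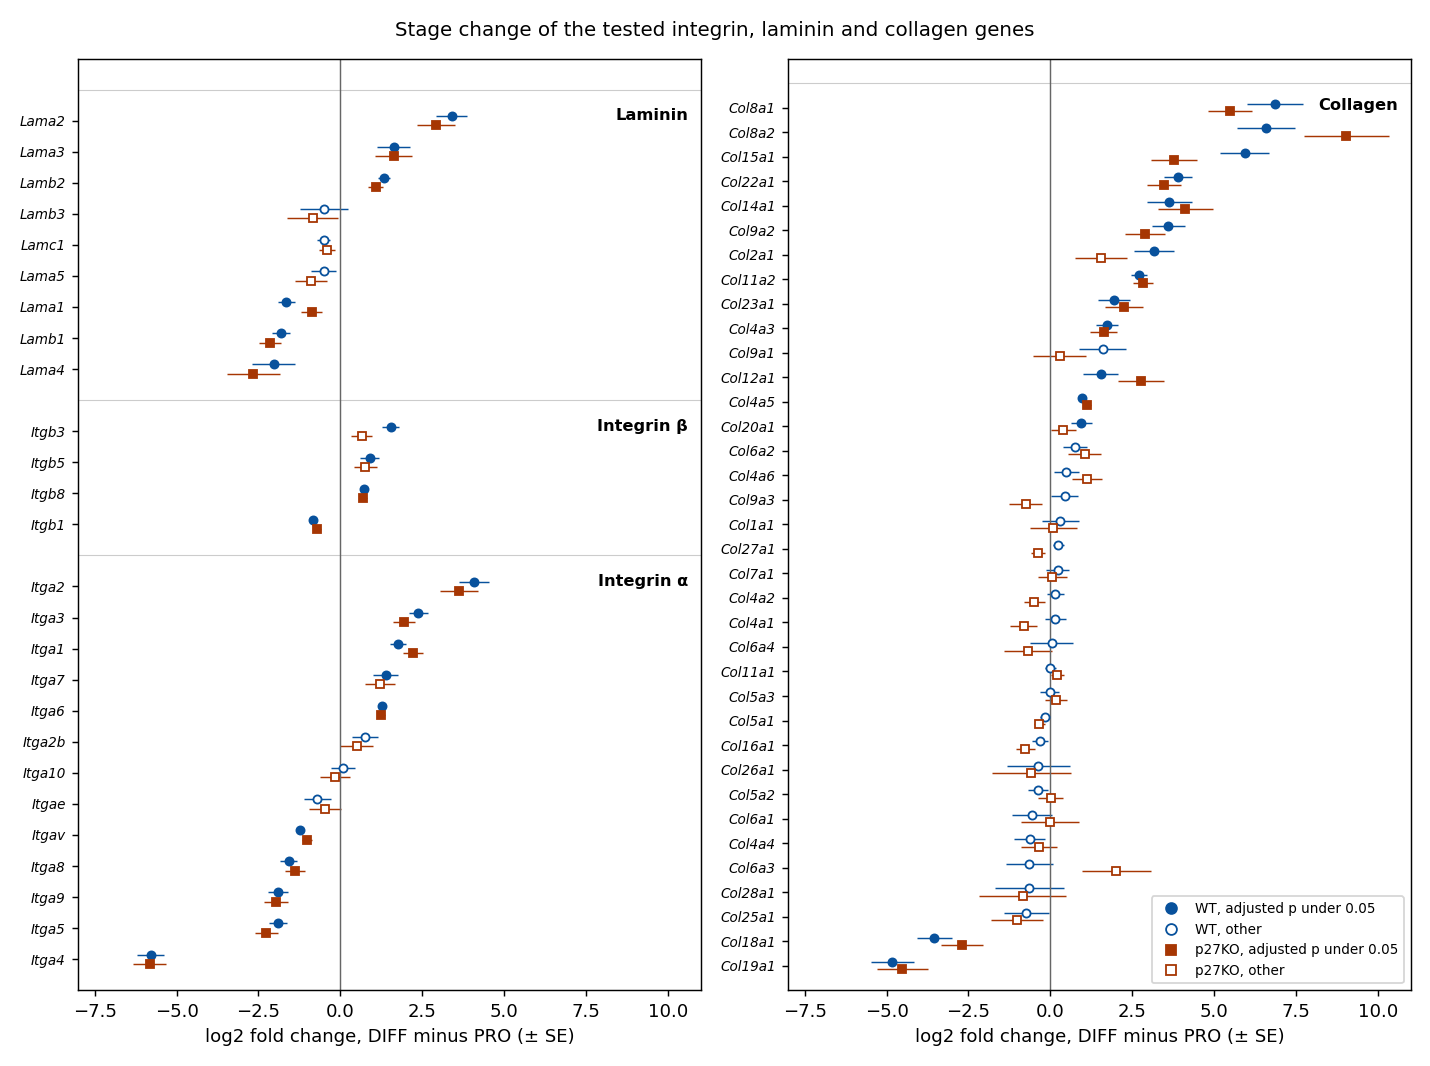
Log2 fold change from PRO to DIFF (x axis, DIFF minus PRO, ± SE) of the tested genes described here (rows, by family), for WT (circles) and p27KO (squares). Filled symbols passed the adjusted p of 0.05 with edgeR. Itga4 lies farthest to the left, at -5.78 in WT and -5.82 in p27KO, and Col8a1 and Col8a2 farthest to the right. Values of genes with 0 or few counts at one stage, such as Col8a1 and Col8a2, depend on the prior count of the fit and are no measure of size.

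Of the 13 integrin α chains tested, 5 were higher and 5 lower at DIFF in WT, beside 30.8% and 31.2% of all genes, and in p27KO 4 were higher and 5 lower, beside 24.3% and 27.3%. Itga4, the α4 chain that binds VCAM1 and a spliced segment of fibronectin, fell the most. It was at 195, 338 and 349 CPM in the WT PRO libraries and at 4.98, 6.81 and 4.25 in the WT DIFF libraries. In p27KO it was at 185 and 397 CPM at PRO and at 6.09 and 4.18 at DIFF. All 5 PRO libraries were far above all 5 DIFF libraries. The level fell 55.0-fold in WT (log2 fold change -5.78 ± 0.41 SE, edgeR adjusted p = 5.63e-06) and 56.4-fold in p27KO (-5.82 ± 0.51, edgeR adjusted p = 3.54e-05). Itga4 (ENSMUSG00000027009) lies on the plus strand at chr2:79255426-79333123 of GRCm38. Its exons overlap those of Cerkl on the other strand, which had 10 counts in all libraries together.

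Itga2, a collagen receptor chain on epithelial cells and platelets, was the integrin with the largest rise. It was at 0.215, 0.329 and 1.10 CPM in WT PRO and at 8.80, 9.53 and 9.84 in WT DIFF, and went from 0.429 and 0.619 to 8.15 and 4.83 in p27KO. The groups did not overlap in either genotype. The rise was 17.0-fold in WT (4.09 ± 0.47, edgeR adjusted p = 3.89e-05) and 12.4-fold in p27KO (3.63 ± 0.57, edgeR adjusted p = 0.00052). The bases just upstream of both starts are shown because these are the integrin genes that moved most in opposite directions. They come from RefSeq's promoter table (GRCm38.p6), begin 250 bases before the RefSeq start, and stop at that start or at the outermost exon of GENCODE vM21 where this comes earlier. Capitals mark GGGCGG, the core of the GC box, or its reverse complement, and CCAAT or its reverse complement. TATAAA and TGACTCA (the AP-1 site) were searched as well, on both strands.
Itga4 (falls, chr2:79255176-79255425, plus strand): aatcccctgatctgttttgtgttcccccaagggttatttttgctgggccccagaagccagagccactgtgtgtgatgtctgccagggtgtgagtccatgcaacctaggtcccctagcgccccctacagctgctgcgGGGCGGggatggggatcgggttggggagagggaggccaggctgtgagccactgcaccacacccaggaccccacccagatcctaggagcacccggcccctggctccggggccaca
Itga2 (rises, chr13:114932101-114932350, minus strand): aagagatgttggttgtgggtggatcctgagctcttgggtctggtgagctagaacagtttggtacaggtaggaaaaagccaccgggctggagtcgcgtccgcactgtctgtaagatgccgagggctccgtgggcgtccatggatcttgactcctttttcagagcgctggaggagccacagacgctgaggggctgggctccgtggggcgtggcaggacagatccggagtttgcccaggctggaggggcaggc
The Itga4 stretch holds GGGCGG at 1 place and the Itga2 stretch at none, and neither holds the other 3 motifs. Of the 32851 upstream windows of 250 bases in the table, 32.7% hold GGGCGG, 33.85% CCAAT, 12.4% TATAAA and 4.46% TGACTCA, counted on either strand. Windows were given for 58 of the 81 genes (64 windows, some genes having more than 1), of which 31 windows hold GGGCGG, 17 CCAAT, 5 TATAAA and 2 TGACTCA. The median number of CpG dinucleotides per window was 10.0 in the 14 windows of genes higher at DIFF in both genotypes and 11.5 in the 10 windows of genes lower in both, beside 6.0 over all windows.

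Of the 4 α chains that recognise RGD sequences, the tripeptide by which fibronectin and vitronectin are bound, 3 were lower at DIFF in each genotype. Beside them, 31.2% of all genes were lower in WT and 27.3% in p27KO. The fourth chain, not called, was the platelet chain Itga2b. Whether classes of chains by ligand differ was not tested. Itgav, partner of several β chains, went from 448, 520 and 533 CPM to 183, 234 and 226 in WT, a fall of 2.33-fold (-1.22 ± 0.12, edgeR adjusted p = 1.52e-05), and fell 2.03-fold in p27KO. Itga5, whose pair with β1 is the classical fibronectin receptor, went from 27.8, 28.6 and 22.4 to 9.76, 5.84 and 5.64 CPM in WT (3.72-fold lower, edgeR adjusted p = 0.000267) and was 4.79-fold lower in p27KO (edgeR adjusted p = 0.000526). For both chains the lowest PRO library lay above the highest DIFF library in each genotype. Itga8, the nephronectin receptor chain, was 2.98-fold lower in WT and 2.61-fold in p27KO (edgeR adjusted p = 0.000399 and 0.00399). Itga9, which binds tenascin-C and osteopontin, was 3.71-fold lower in WT and 3.90-fold in p27KO (edgeR adjusted p = 0.000354 and 0.0014). An antisense gene, E030013I19Rik, overlaps Itga8 and had 5 counts in all libraries.

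All 3 laminin-binding α chains were called higher at DIFF in WT and 2 of the 3 in p27KO, beside 30.8% and 24.3% of all genes. Itga6 was the most abundant of them, at 238, 259 and 265 CPM in WT PRO and 673, 568 and 594 in WT DIFF, and at 268 and 269 against 695 and 577 in p27KO. The highest PRO library was at 269 CPM and the lowest DIFF library at 568. Its log2 fold change was 1.27 ± 0.10 in WT (edgeR adjusted p = 2.49e-06) and 1.25 ± 0.12 in p27KO (edgeR adjusted p = 2.32e-05). Itga3, typical of skin and kidney basement membranes, was low and rose 5.23-fold in WT and 3.82-fold in p27KO. Itga7, best known from muscle, was at 35.3, 13.1 and 13.4 CPM in WT PRO and at 65.3, 43.6 and 51.9 in WT DIFF, a rise of 1.39 ± 0.38 (edgeR adjusted p = 0.0119). In p27KO its change was 1.22 ± 0.46 (edgeR adjusted p = 0.0562), past the threshold in 8 of 18 alternatives, DESeq2 among them, with an adjusted p from 0.0012 to 0.201. Of the collagen-binding chains, Itga1 also rose, from 4.29, 6.38 and 6.81 to 17.3, 25.9 and 16.2 CPM in WT (edgeR adjusted p = 0.000143), and from 5.45 and 6.45 to 33.1 and 22.5 in p27KO. Itga10, a chain of cartilage, was at 0.558 to 1.29 CPM in all libraries with a log2 fold change of 0.09 ± 0.37 in WT.

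Among the β chains, Itgb1, the common partner of most α chains above, was lower at DIFF and the other 3 tested chains were higher in WT. Over all genes 31.2% were lower and 30.8% higher there. Itgb1 went from 827, 945 and 949 CPM to 450, 537 and 525 in WT (-0.85 ± 0.10, edgeR adjusted p = 3.80e-05) and from 952 and 852 to 565 and 543 in p27KO. It was the integrin gene with the highest level per length at both stages, at 222 ± 17.1 CPM per kb of exon at WT PRO and 123 ± 11.5 at WT DIFF (SD, n = 3). Itgb8, which with αv releases active TGF-β from its latent form, rose from 424, 407 and 383 to 666, 691 and 657 CPM in WT (0.73 ± 0.11, edgeR adjusted p = 0.000178) and by 0.69 ± 0.13 in p27KO. Itgb3, the vitronectin receptor chain of platelets and vessels, rose 2.90-fold in WT from 1.18, 2.18 and 1.52 CPM to 5.27, 5.15 and 3.87, and was at 1.59 and 1.86 against 2.91 and 2.52 in p27KO, without a call (edgeR adjusted p = 0.111). Itgb5, another vitronectin receptor chain, was at 59.0, 29.6 and 25.2 CPM at WT PRO and at 85.9, 64.4 and 61.5 at WT DIFF. Its change of 0.90 ± 0.29 (edgeR adjusted p = 0.0254) was no longer called without WT PRO replicate 2 (edgeR adjusted p = 0.076), WT PRO replicate 3 (0.0594), WT DIFF replicate 1 (0.0781) or the filter on low counts (0.0889). In p27KO it was at 59.9 and 49.2 CPM at PRO and at 89.4 and 95.4 at DIFF (0.76 ± 0.36, edgeR adjusted p = 0.104), past the threshold in 6 of 18 alternatives, DESeq2 among them, with an adjusted p from 0.00261 to 0.308.

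**Figure D2:**
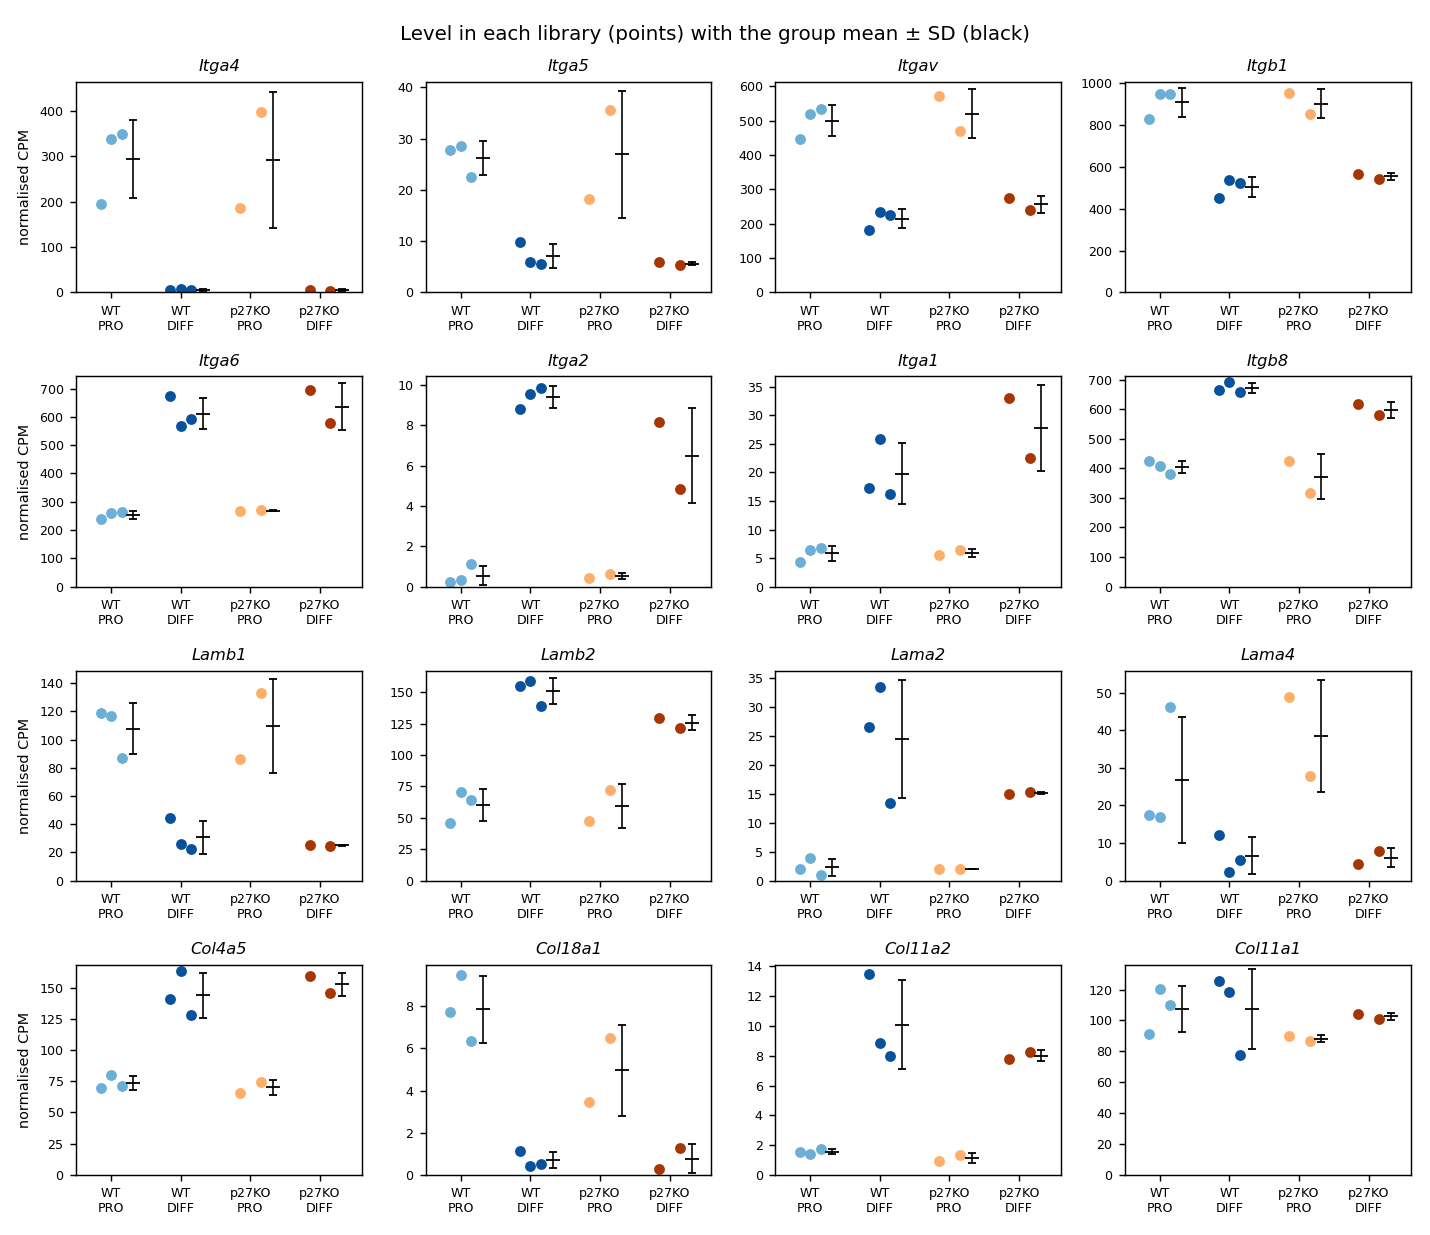
Level in normalised CPM (y axis, linear from 0) of 16 genes in each library (points, by group), with the group mean ± SD in black (n = 3 for WT, n = 2 for p27KO). Itga4 is near 0 in all 5 DIFF libraries, Itga6 and Col4a5 are higher in all 5 DIFF than in all 5 PRO libraries, and Col11a1 lies between 77.7 and 126 CPM throughout.

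Read per length of exon, which allows genes to be compared, the make-up of the integrin α pool changed with the stage. At WT PRO, Itgav made up 43.7% ± 0.335 of all α chains (SD, n = 3), Itga6 26.4% ± 1.12 and Itga4 19.5% ± 4.14. By WT DIFF, Itga6 made up 67.2% ± 2.41, Itgav 19.9% ± 3.50 and Itga4 0.382% ± 0.107. The p27KO shares were alike in order: Itga6 went from 27% ± 1.83 to 66.6% ± 1.67 (n = 2). Of the β pool Itgb1 held 82.3% ± 3.24 at WT PRO and 60.2% ± 3.31 at WT DIFF, while Itgb8 went from 13.6% ± 1.16 to 29.7% ± 1.02. Without the division by length, Itgb1 held 67.1% and 40.2%, since its exons are short, and Itgb8 then exceeded it at WT DIFF with 53.7%. These are shares of RNA, not of protein at the cell surface.

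**Figure D3:**
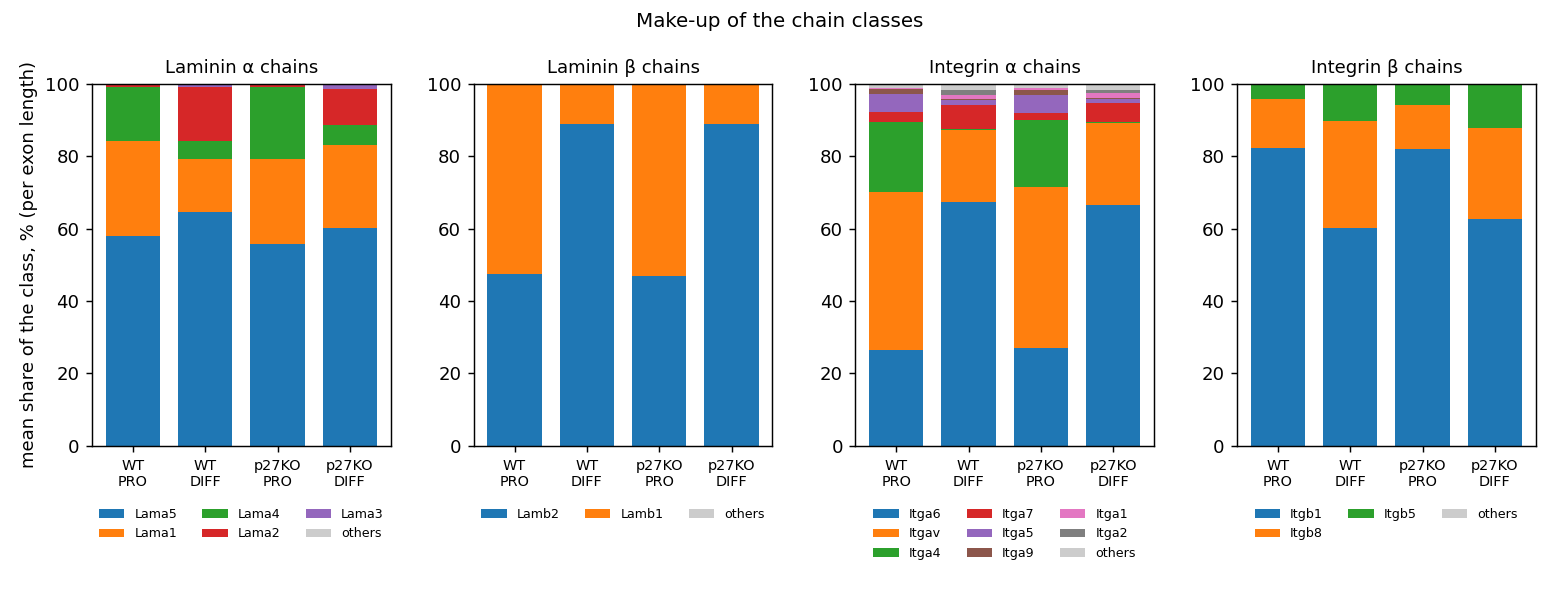
Mean share of each chain in its class (y axis, percent of the summed CPM per kb of exon) in the 4 groups, for laminin α, laminin β, integrin α and integrin β chains. Chains that never reach 1% are summed as others. Lamb2 and Itga6 take the larger part of their class at DIFF, and the Itga4 segment seen at PRO is at 0.382% at WT DIFF.

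Among the laminins the 2 main β chains moved in opposite directions. Lamb1, the β chain of the laminins of early development, went from 119, 117 and 86.9 CPM to 44.1, 25.8 and 22.5 in WT and from 86.3 and 133 to 25.3 and 24.5 in p27KO. Lamb2, the β chain of synaptic and vascular laminins, went from 45.9, 70.5 and 63.8 to 155, 159 and 139 in WT and from 47.3 and 71.8 to 130 and 122 in p27KO. Neither gene had overlapping stages in either genotype. The log2 fold change of Lamb1 was -1.81 ± 0.27 in WT (edgeR adjusted p = 0.000357) and -2.14 ± 0.33 in p27KO (edgeR adjusted p = 0.000708). For Lamb2 it was 1.33 ± 0.18 (edgeR adjusted p = 0.000131) and 1.08 ± 0.22 (edgeR adjusted p = 0.00247). Per length, Lamb2 made up 47.5% ± 8.18 of the β chains at WT PRO and 88.9% ± 3.37 at WT DIFF, and 46.8% ± 0.277 and 88.9% ± 0.0465 in p27KO. The upstream stretches of this pair are shown for the same reason as those of the integrins, with capitals as above.
Lamb1 (falls, chr12:31265043-31265233, plus strand): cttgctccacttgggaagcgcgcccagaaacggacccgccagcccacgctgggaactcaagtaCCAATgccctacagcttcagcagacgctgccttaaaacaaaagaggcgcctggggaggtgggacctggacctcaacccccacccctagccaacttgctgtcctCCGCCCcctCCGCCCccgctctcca
Lamb2 (rises, chr9:108479612-108479735, plus strand): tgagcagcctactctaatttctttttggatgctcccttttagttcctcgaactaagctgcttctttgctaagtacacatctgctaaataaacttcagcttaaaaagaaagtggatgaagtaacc
The Lamb1 stretch holds CCGCCC, the reverse complement of GGGCGG, at 2 places and CCAAT at 1, with 10 CpG in 191 bases. The Lamb2 stretch holds none of the 4 motifs and 1 CpG in 124 bases.

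Lama2, the α chain of muscle and glial basement membranes, rose the most of the laminins. It was at 1.99, 3.87 and 1.00 CPM in WT PRO and at 26.6, 33.4 and 13.5 in WT DIFF (3.40 ± 0.47, edgeR adjusted p = 0.000235), and went from 2.06 and 1.96 to 15.0 and 15.3 in p27KO (edgeR adjusted p = 0.00274). Lama1, the α chain of early embryonic laminin, fell from 44.3, 49.7 and 31.1 to 14.4, 11.4 and 14.1 CPM in WT (-1.65 ± 0.26, edgeR adjusted p = 0.000475). In p27KO it went from 38.8 and 38.1 to 13.7 and 28.4, and that call (edgeR adjusted p = 0.0428) was lost under 12 of the 18 alternatives tried, p reaching 0.21 without p27KO DIFF replicate 1. Lama4, an α chain of vessels, was at 17.5, 16.8 and 46.1 CPM in WT PRO and at 12, 2.31 and 5.49 in WT DIFF. It fell 4.09-fold (edgeR adjusted p = 0.0279). That call was lost when the replicate number was a block within genotype (edgeR adjusted p = 0.0607) or across genotypes (0.0547), without the count filter (0.083), and without WT PRO replicate 3 (0.0887), WT DIFF replicate 2 (0.0635) or WT DIFF replicate 3 (0.0916). Its p27KO levels were 48.9 and 27.9 at PRO and 4.31 and 7.92 at DIFF (edgeR adjusted p = 0.0275), a call lost without p27KO PRO replicate 1 (edgeR adjusted p = 0.0842), p27KO DIFF replicate 1 (0.138) or 2 (0.0672), or the count filter (0.0832), and with the additive (0.0569) or nested replicate block (0.0643).

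Lama5, which held the largest share of the α chains at both stages, and Lamc1 were not called. Lama5, the broadest adult α chain, was at 115, 131 and 76.8 CPM in WT PRO and at 106, 70.0 and 50.6 in WT DIFF (-0.51 ± 0.39, edgeR adjusted p = 0.283). It made up 57.9% ± 7.94 of the α chains at WT PRO and 64.7% ± 3.89 at WT DIFF, while Lama2 went from 0.827% ± 0.43 to 14.9% ± 5.49. Lamc1, the γ chain of nearly all laminins, was at 346, 313 and 219 CPM and then at 221, 208 and 191 in WT (-0.50 ± 0.20, edgeR adjusted p = 0.0539). Adjusted p for Lamc1 in WT ran from 0.00869 to 0.195 over the alternatives. Lama3, an α chain of skin basement membranes, rose from levels under 1 CPM, with a fitted log2 fold change of 1.63 ± 0.50 in WT. Lamb3, a β chain of the same tissue, was at 0.0953 to 0.825 CPM and was not called. The call of Lama3 was lost in WT without PRO replicate 2 or 3 (edgeR adjusted p = 0.0513 and 0.0521), and in p27KO without PRO replicate 1 (0.0765) or 2 (0.15) or DIFF replicate 2 (0.254) or with the replicate block nested in genotype (0.0555), all from edgeR.

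Of the 36 collagens tested, 13 were higher and 2 lower at DIFF in WT, beside 30.8% and 31.2% of all genes. Of the higher ones, Col14a1, Col15a1, Col2a1, Col8a1 and Col8a2 had 10 counts only in DIFF libraries. The lower Col19a1 had them only in PRO libraries. These passed the filter through the stage where they are high, so the counts are not read as differing from those shares. Of the 8 network collagens 4 were higher, among them Col8a1 and Col8a2, which passed the filter through DIFF libraries alone. Of the basement membrane collagen IV, the chains that are usually the most abundant, Col4a1 and Col4a2, were low and not called: Col4a1 was at 3.38, 4.40 and 4.0 CPM in WT PRO and at 6.43, 2.39 and 4.36 in WT DIFF (0.16 ± 0.33), and Col4a2 at 1.29 to 1.92 CPM in all 6 (0.16 ± 0.25). Col4a5 was the main chain. It rose from 69.8, 79.8 and 71.5 to 141, 164 and 128 CPM in WT (0.97 ± 0.11, edgeR adjusted p = 2.57e-05) and from 65.7 and 74.4 to 159 and 146 in p27KO (1.13 ± 0.13, edgeR adjusted p = 6.89e-05). Every DIFF library was above every PRO library. Per length it made up 87.4% ± 2.11 of the collagen IV chains at WT PRO and 91.1% ± 2.74 at WT DIFF.

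Collagen IV genes lie head to head in pairs that start close together, and the calls and values of both partners are given here. Col4a6, partner of Col4a5 on the X chromosome, was at 6.87, 2.84 and 6.34 CPM in WT PRO and at 5.03, 6.33 and 11.1 in WT DIFF (0.50 ± 0.37, edgeR adjusted p = 0.267). In p27KO it went from 5.20 and 7.32 to 14.9 and 12.3 (1.12 ± 0.45, edgeR adjusted p = 0.0607), with an adjusted p from 0.00662 to 0.248 over 18 alternatives and past the threshold in 9 of them. Both genes being X-linked, their genotype values carry the difference in Xist given above. Col4a3 rose 1.73 ± 0.33 on the log2 scale in WT from 0.59, 0.781 and 0.429 CPM to 2.51, 1.74 and 1.80, whereas its partner Col4a4 was at 0.537, 0.781 and 1.24 and then at 0.725, 0.527 and 0.413 (-0.63 ± 0.47, edgeR adjusted p = 0.268). The p27KO rise of Col4a3 (edgeR adjusted p = 0.00789) was lost without p27KO DIFF replicate 1 (0.0602). Whether partners differ from each other was not tested. Exons of Col4a1 and Col4a2 overlap on opposite strands, as do those of Col4a3 and C430014B12Rik (106 counts in all libraries, beside 287 of Col4a3), and the strand setting of the counting is not given in the sources used here.

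**Figure D4:**
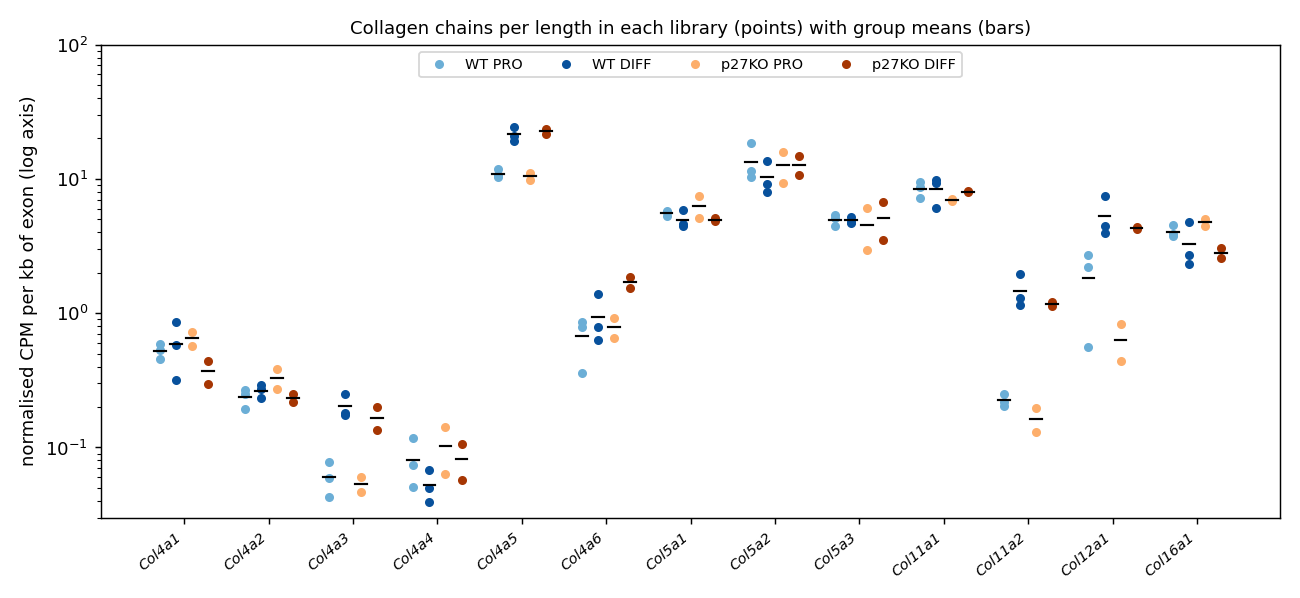
Level per length in normalised CPM per kb of exon (y axis, log) of 13 collagen chains (x axis) in each library (points, by group), with the group mean as a bar. Col4a5 stands above the other collagen IV chains in all groups and is higher at DIFF, Col11a2 and Col4a3 are higher at DIFF in both genotypes, and Col5a1, Col5a2, Col5a3 and Col11a1 overlap between stages in WT. In p27KO Col11a1 was at a mean of 6.92 ± 0.173 at PRO and 8.05 ± 0.162 at DIFF (SD, n = 2). Col5a1 was at 6.28 ± 1.66 and 4.97 ± 0.145 there. Neither was called in the stage change of either genotype.

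Collagen VIII, a short-chain network collagen of vessel walls and of Descemet's membrane in the eye, was nearly absent from neurospheres. Col8a1 had 0 counts in the 3 WT PRO libraries together and 45 in WT DIFF, which makes it at least 13.3-fold higher with a floor of 3 counts over the group. In p27KO it had 2 and 113 counts, a ratio of 49.5 with a 95% interval of 13.4 to 413 that covers counting error only. Col8a2 had 1 and 140 counts in WT, a ratio of 124 (22.0 to 4948), and 0 and 138 in p27KO, at least 40.3-fold higher. At DIFF these are still low levels, 0.487 to 2.96 CPM for Col8a1 and 1.24 to 3.87 for Col8a2. Both were called in both genotypes, Col8a1 with an edgeR adjusted p of 0.000169 and Col8a2 of 0.000172 in WT. Their upstream stretches are shown because both chains belong to collagen VIII and both rose from near 0.
Col8a1 (rises, chr16:57754738-57754987, minus strand): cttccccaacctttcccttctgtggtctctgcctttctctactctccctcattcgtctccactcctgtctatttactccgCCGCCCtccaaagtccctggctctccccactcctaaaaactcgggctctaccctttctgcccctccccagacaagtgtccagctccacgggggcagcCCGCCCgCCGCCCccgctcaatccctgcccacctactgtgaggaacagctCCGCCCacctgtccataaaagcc
Col8a2 (rises, chr4:126286544-126286792, plus strand): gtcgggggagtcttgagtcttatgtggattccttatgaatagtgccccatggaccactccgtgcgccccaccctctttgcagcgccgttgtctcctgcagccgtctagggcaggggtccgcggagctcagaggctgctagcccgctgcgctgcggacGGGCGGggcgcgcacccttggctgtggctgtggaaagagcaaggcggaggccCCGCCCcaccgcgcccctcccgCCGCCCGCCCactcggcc
GGGCGG or its reverse complement stands at 4 places in each, 2 of those in Col8a2 overlapping, and none of the other 3 motifs is present. The Col8a1 stretch holds 10 CpG and the Col8a2 stretch 23.

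The multiplexins, basement membrane collagens that carry heparan or chondroitin sulphate, moved in opposite directions. Col18a1, the source of endostatin, went from 7.73, 9.5 and 6.34 CPM to 1.11, 0.406 and 0.526 in WT (11.7-fold lower, edgeR adjusted p = 0.000299) and from 3.43 and 6.50 to 0.272 and 1.26 in p27KO. Col15a1 had 1 count in the WT PRO libraries and 90 at WT DIFF, a ratio of 80.0 (95% counting interval 14.0 to 3194), and stayed under 2 CPM.

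Among the FACITs, which coat fibrils, 5 of 9 were higher and 1 lower in WT, beside 30.8% and 31.2% of all genes, with a median log2 fold change of 1.54. In p27KO 4 were higher and 1 lower, beside 24.3% and 27.3%, with a median of 0.40. The medians over all genes tested were 0.03 in WT and -0.008 in p27KO. For the difference between the 2 stage changes 0 of these 9 genes were called, so the FACIT medians are not read as a difference between genotypes. Col14a1, higher in both, passed the filter through DIFF libraries alone, and Col19a1, lower in both, through PRO libraries alone. Col19a1 fell from 2.31, 2.22 and 6.43 CPM to 0.0967, 0.0811 and 0.188 in WT and from 5.80 and 1.91 to 0.155 and 0.174 in p27KO, a log2 fold change of -4.82 and -4.51. Col22a1, a collagen of tissue junctions, rose from 0.59, 0.617 and 0.286 to 12, 5.88 and 4.73 CPM in WT (3.90 ± 0.42, edgeR adjusted p = 2.22e-05) and by 3.48 ± 0.52 in p27KO. Col9a2, a chain of cartilage collagen IX, rose from 1.18, 0.781 and 1.43 to 21.7, 9.21 and 10.3 CPM in WT and by 2.90 ± 0.61 in p27KO. Of the other collagen IX chains, Col9a1 had a log2 fold change of 1.61 ± 0.72 (edgeR adjusted p = 0.0752) and Col9a3 of 0.45 ± 0.41 in WT. Neither passed the threshold, and whether the 3 chains differ was not tested. Col14a1 was at 0 to 0.191 CPM at PRO and 0.827 to 1.47 at DIFF. Col12a1, found around tendons and nerves, was at 8.58, 41.0 and 33.8 CPM in WT PRO and at 60.7, 114 and 68.0 in WT DIFF (1.54 ± 0.53, edgeR adjusted p = 0.0366), and at 6.66 and 12.6 against 66.3 and 64.6 in p27KO. Its WT call was lost without WT PRO replicate 3, WT DIFF replicate 2 or 3, either p27KO DIFF replicate (edgeR adjusted p = 0.0505 to 0.119), or the count filter (0.0978), and its p27KO call without p27KO PRO replicate 1 (0.0575). Col20a1 rose by 0.95 ± 0.31 in WT, a call lost without WT PRO replicate 2 or WT DIFF replicate 3 (edgeR adjusted p = 0.0631 and 0.076) or the count filter (0.0647). Its 210 counts in all libraries lie beside 1153 of BX649560.1, whose exons overlap it on the same strand, so its reads are uncertain. Col16a1 was not called.

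Of the 8 fibrillar collagens tested, 2 were higher and 0 lower in WT, beside 30.8% and 31.2% of all genes. In p27KO 1 was higher and 0 lower, beside 24.3% and 27.3%. Col11a1, the chain of collagen XI, was at 91.2, 120 and 110 CPM in WT PRO and at 126, 119 and 77.7 in WT DIFF, a log2 fold change of 0.00 ± 0.17. Its partner Col11a2 rose from 1.5, 1.40 and 1.72 to 13.5, 8.84 and 7.96 CPM in WT (6.54-fold, edgeR adjusted p = 6.93e-06) and 7.17-fold in p27KO (edgeR adjusted p = 4.72e-05), from a level far below it. Col5a1, Col5a2 and Col5a3, the collagen V chains that form mixed fibrils with collagen I, had WT log2 fold changes of -0.17 ± 0.14, -0.38 ± 0.31 and -0.02 ± 0.28. Col2a1, the cartilage collagen, was called in WT at 0.0411 to 0.107 CPM against 0.406 to 1.21, and passed the filter through DIFF libraries alone. Col1a1, the main collagen of connective tissue, was at 0.333 to 1.21 CPM in all libraries. Of the transmembrane collagens Col23a1 rose from 0.429, 1.65 and 1.38 to 5.37, 4.95 and 3.31 CPM in WT (edgeR adjusted p = 0.00544). In p27KO it rose by 2.25 ± 0.59, a call lost without p27KO PRO replicate 2 (edgeR adjusted p = 0.0675) or p27KO DIFF replicate 1 (0.0962). Collagens VI, VII, XXVI and XXVIII had 7 tested genes and none was called at either genotype's stage change, beside the same shares. None had an unadjusted p under 0.05 in edgeR, beside 11057 of all 16797 genes in WT and 9719 in p27KO.

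No collagen, laminin or integrin gene was called between genotypes. For the difference between the 2 stage changes (the interaction) 0 of 63 passed with edgeR, 1 had an unadjusted p under 0.05, DESeq2 called 0, and 0.28% of all genes were called. At DIFF 0 passed, 6 had an unadjusted p under 0.05, DESeq2 called 0 and 1.49% of all genes were called. At PRO 0 passed, 4 had an unadjusted p under 0.05, DESeq2 called 0 and 0.0536% of all genes were called. Col20a1, Col2a1, Itga7, Itgb3 and Itgb5, past the edgeR threshold in WT and not in p27KO, are thus not shown to differ between genotypes. Col27a1, a fibrillar collagen of cartilage, had the smallest p of the interaction: it was at 16.0, 15.5 and 13.2 and then 21.2, 18.1 and 13.7 CPM in WT, and at 13.2 and 17.2 and then 12.2 and 11.3 in p27KO (-0.61 ± 0.27, p27KO minus WT, edgeR unadjusted p = 0.0472, adjusted p = 1.0). Next came Itgb3 (-0.88 ± 0.41) and Col6a3 (2.66 ± 1.28). At DIFF the smallest p belonged to Col8a1, at 0.822, 0.487 and 0.601 CPM in WT and 1.75 and 2.96 in p27KO (1.88 ± 0.42, edgeR adjusted p = 0.0897), followed by Col27a1 (-0.59 ± 0.19) and Itgb3 (-0.81 ± 0.29). At PRO it belonged to 3 chains of collagen VI, the beaded filaments around cells: Col6a1 was at 1.02, 4.61 and 3.19 CPM in WT and 0.386 and 0.671 in p27KO (-2.49 ± 0.80, edgeR unadjusted p = 0.0116, adjusted p = 0.991), Col6a3 differed by -2.54 ± 0.99 and Col6a2 by -1.10 ± 0.47. Some genes of the stage change had differences between genotypes at DIFF of -0.05 ± 0.45 (Itga4), 0.06 ± 0.11 (Itga6), -0.26 ± 0.20 (Lamb2) and 0.08 ± 0.12 (Col4a5) on the log2 scale, p27KO minus WT. These do not stand for the others. The median absolute difference at DIFF was 0.33 over the 63 genes and 0.18 over all genes tested. The 6 genes with an unadjusted p under 0.05 in edgeR at DIFF were Col27a1, Col2a1, Col6a1, Col8a1, Itgb3 and Lama1, beside 2095 of all 16797 genes.

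The same stage change was read in 5 lists of genes that work with these families, beside shares over all genes of 30.8% higher and 31.2% lower in WT and 24.3% and 27.3% in p27KO. Of the other basement membrane genes 14 were tested, 7 were higher and 2 lower in WT: Nid1, the linker of laminin and collagen IV, rose by 2.60 ± 0.48 (edgeR adjusted p = 0.00114), while Fbln2, a fibulin that binds both, went from a mean of 59.6 to 5.07 CPM and Ntn4, a netrin with laminin homology, from 35.2 to 8.30. Collagen-modifying enzymes and chaperones had 27 tested, 5 higher and 8 lower: the procollagen N-proteinases Adamts14 and Adamts2 went opposite ways, from 26.3 to 0.258 and from 0.376 to 2.31 CPM, and Crtap, of the prolyl 3-hydroxylation complex, from 26.6 to 7.25. Integrin adhesion adaptors had 27 tested, 10 higher and 9 lower, among them Zyx of focal adhesions (89.5 to 17.1 CPM), Lims2 (0.234 to 2.04) and Parvb (8.37 to 31.4), members of the complex of integrin-linked kinase. Other integrin ligands had 19 tested, 10 higher and 6 lower. Spp1, the osteopontin bound by α4, α9 and αv integrins, went from 62.3 to 0.586 CPM and the fibrillin Fbn2 from 313 to 16.1, whereas thrombospondin Thbs1 rose from 2.86 to 63.8 (4.49 ± 0.32, edgeR adjusted p = 3.36e-06). Matrix proteases and inhibitors had 24 tested, 5 higher and 11 lower, including Adam12 (380 to 23.1 CPM), Adamts1 (62.2 to 6.86) and Mmp11 (0.384 to 4.80). In p27KO the same lists gave 6 higher and 4 lower, 4 and 6, 5 and 10, 7 and 5, and 5 and 10, and of the genes named here Adamts2, Lims2 and Parvb were not called there (edgeR adjusted p = 0.0989, 0.254 and 0.134).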

How the data were processed

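PolyA RNA of the 10 cultures had been amplified with the Ovation RNA-seq V2 system and sequenced. The authors aligned reads with STAR to the Ensembl mouse transcriptome and deposited RSEM estimated counts per gene, given as whole numbers and not normalised. The submitters' processing notes also name FastQC, Trimmomatic, cutadapt, DESeq2 and GRCm38 (mm10). Tool versions and the strand setting are not given in the sources used here. Totals of 19190068 to 25291674 counts limit the precision of genes under about 1 CPM, and intervals on counts cover counting error only.

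From these counts, 16797 of 48795 genes with at least 10 counts in at least 2 libraries were tested with edgeR 4.0.16 (R 4.3.3; TMM, robust quasi-likelihood fit over the 4 groups, Benjamini-Hochberg over all genes tested). The comparisons were DIFF against PRO in each genotype, the difference between those changes (the interaction), and the genotypes at PRO and at DIFF. SE is the absolute log2 fold change divided by the square root of F. DESeq2 1.42.0, other filters, normalisation, replicate blocks and leaving out each library were alternatives. On simulated counts for the WT stage change over 16797 genes, edgeR recovered 67 of 100 genes changed 2-fold and 79 of 100 changed 4-fold, with 12 false calls. Only 200 genes were changed there, far fewer than were called in the WT data, so these rates may not hold for the test reported. Symbols matched 48349 IDs and positions 48435. Levels per length used the union of exons (GENCODE vM21, GRCm38). RSEM's own effective lengths were not used. Same-numbered WT PRO and DIFF libraries deviated together (r over genes 0.219, 0.309 and 0.334, against -0.196 to -0.089 for other pairs). The fit reported has no term for such pairs, so its p-values are unpaired. Replicate numbers entered only the alternatives with a replicate block. For p27KO the same-number r was -0.192.

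Genes were named by rule: in each family up to 5 genes called in each direction in WT with a mean of at least 1 CPM, the 3 smallest p of each comparison without a call, the collagen IV pairs and the leading chain per length, and up to 3 genes of each related list. Most are given with values per library, some with fold changes only, and genes of the related lists with group means or fold changes. Genes outside the rule are given to complete a class and were chosen after their values were seen. The genes and lists were chosen with earlier results of these data known. Results of 1 gene of the set are not reported here, though it is part of the counts.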

Additional observations from a re-analysis of the deposited data

How the results depend on the processing

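The direction of every call held in all alternatives that gave a value. Of the 36 WT calls 30 and of the 31 p27KO calls 24 were kept in each of them. Without each library in turn, the counts ranged from 21 to 26 higher and 10 to 12 lower in WT, and from 17 to 23 higher and 9 to 12 lower in p27KO. The low-expression filter of the study (39 of these genes tested) gave 14 higher and 10 lower in WT, and 13 higher and 9 lower in p27KO. Shares over all genes under that filter are not given here. With the replicate number as an additive block, counts were 26 higher and 10 lower in WT and 22 and 9 in p27KO. With the replicate block nested in genotype they were 25 and 10, and 22 and 10, and the nested block ended the call of Lama4 in WT and those of Lama1 (adjusted p = 0.0506), Lama3 and Lama4 in p27KO. Crossing the p27KO numbers, an alternative chosen after seeing the data like the count over genes with 10 counts at each stage, gave 26 and 13, and 23 and 12. Counts between genotypes and for the interaction were 0 under every alternative.

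Without division by exon length, Itga6 held 22.8% of α chains at WT PRO, 23.3% at p27KO PRO and 63.95% at p27KO DIFF, Itgb1 67.1%, 40.2%, 68.0% and 44.4% of β chains at WT PRO, WT DIFF, p27KO PRO and p27KO DIFF, Lama2 1.07% and 14.3% of laminin α chains and Col4a5 82.4% and 88.2% of collagen IV at p27KO PRO and DIFF. Alternatives were run for the 46 genes called or named by rule. Among these, genes not called in the fit reported passed the threshold in some alternatives, as Itga7, Itgb5 and Col4a6 did in p27KO and Lamc1 in WT (6 of 18), and signs turned in 3. Without 1 library, Col4a1 in WT ranged from -0.20 (WT DIFF replicate 1) to 0.46 (WT DIFF replicate 2), Col4a4 in p27KO from -0.84 (p27KO DIFF replicate 1) to 0.37 (p27KO PRO replicate 1), with 0.04 without p27KO DIFF replicate 2, and Col6a1 in p27KO from -0.58 (p27KO DIFF replicate 2) to 0.42 (p27KO PRO replicate 2), with 0.41 without p27KO DIFF replicate 1. Col6a1 was at 0.0119 with DESeq2, 0.0139 with its size factors and 0.0168 with p27KO libraries alone. The cause was not tested. With 2 libraries per p27KO group, a gene lost there is not shown to differ from WT.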
